A study of Rattus norvegicus with 30 samples.

Results

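The comparison described here set the lungs of rats with severe acute pancreatitis (SAP) that had received dexamethasone (DEX-6h) against the lungs of sham-operated rats (Sham-6h), both taken 6 h after the operation. Its members were the 6 libraries labelled for these groups, 3 rats each, of the 30 libraries in the series, and all 15934 genes with enough reads for a test, of 22914 in the table. The rats were male Sprague Dawley rats of 8 weeks. In Sham-6h the pancreas was only rotated. In DEX-6h, 5.0% sodium taurocholate, which damages the pancreas as a detergent-like bile salt, was infused into the biliopancreatic duct, and dexamethasone was injected into a vein at 10 mg/kg at 2 h, so that each rat had received 1 dose. Sham-6h received saline into a vein instead, and both groups received 0.5% carboxymethylcellulose sodium into the stomach. SAP-6h had the taurocholate without the drug, and Con-6h had saline in the duct. DEX-6h vs Sham-6h therefore differs in the infusion and in the drug together, and no group of the series had dexamethasone without the infusion.

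Dexamethasone is a synthetic glucocorticoid. It binds the glucocorticoid receptor, a transcription factor that moves to the nucleus, induces genes such as Fkbp5, Per1 and Zfp36, and restrains the inflammatory genes driven by NF-kB and AP-1. Pancreatitis releases enzymes and cytokines into the blood, and the lung is often injured at a distance, with leakage of fluid through the endothelium into the alveoli. In the alveoli, type 1 cells form the gas exchange surface, type 2 cells make surfactant, and sodium transport by Na,K-ATPase clears fluid.

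In DEX-6h vs Sham-6h, 358 genes rose and 275 fell, at an adjusted p under 0.05 and a change of at least 2-fold. These 633 differentially expressed genes (DEGs) were 3.97% of the genes tested, 2.25% up and 1.73% down. At any fold, 822 genes were higher and 731 lower. The study describes a trend to more down-regulated than up-regulated genes in DEX vs Sham at both times. Its threshold is a p-value in its methods and an FDR in its results. The counts here run the other way at 6 h, though not without replicate 1 of Sham-6h. At 24 h, 158 genes rose and 504 fell. Of the DEGs, 514 had a mean of at least 1 FPKM (fragments scaled to gene length and to the mapped reads of the library) in a group, 76 rose by 2 or more on the log2 scale and 51 fell by 2 or more. By type, 609 DEGs were protein coding, 17 were lincRNAs, 6 were pseudogenes of either kind and 1 was a miRNA gene. The median log2 fold change of all genes tested was -0.04. The FPKM of the groups did not overlap in 95.1% of the DEGs, against 26.75% of genes tested. Without replicate 1 of DEX-6h the counts were 239 up and 133 down, leaving out replicate 3 of DEX-6h gave 210 and 197, and leaving out replicate 1 of Sham-6h gave 181 and 191. Of 102 called genes examined one by one, 11 of them chosen after their values were seen, 42 kept the call under every alternative tried. The call was lost by 33 without replicate 3 of Sham-6h, 34 without replicate 1 of DEX-6h, 31 without replicate 1 of Sham-6h, 27 without replicate 3 of DEX-6h, and 14 and 15 without replicate 2 of DEX-6h and of Sham-6h. It was lost by 33 when the 6 libraries were fitted alone, Aqp3, Mt2A, Aqp5 and Treml1 among them, and by 27 with limma on log2(FPKM + 1), Cyp2c22, Per1 and Glul among them.

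**Figure D1:**
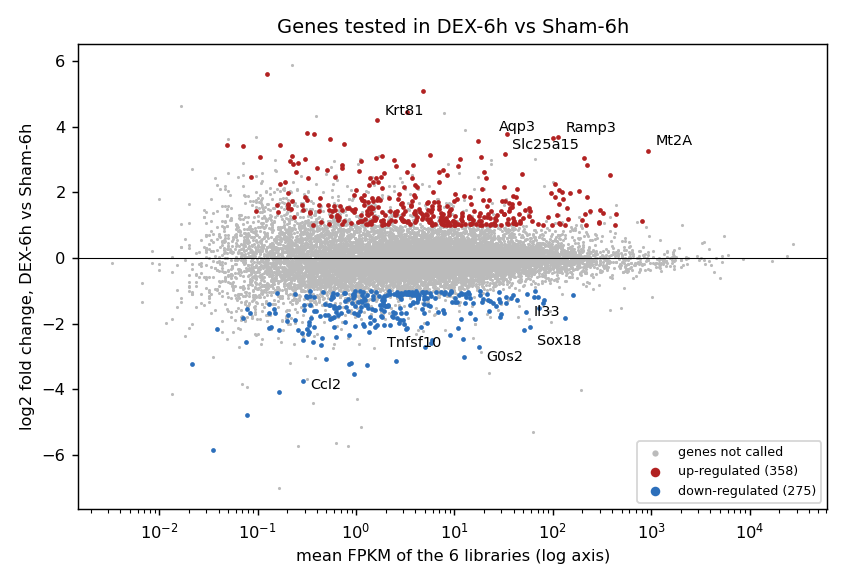
Log2 fold change of DEX-6h vs Sham-6h (vertical axis) against the mean FPKM of the 6 libraries (horizontal log axis), one point per gene tested. The 358 up-regulated genes (red) and 275 down-regulated genes (blue) lie at low and high FPKM alike.

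The 6 libraries held 23897363 to 32834792 reads on genes, all 3 of DEX-6h above all 3 of Sham-6h. Between pairs of rats of one group, the variance of the counts was 49.0 to 124 times the variance that counting error alone gives, as a mean over genes. Replicate 2 of Sham-6h stood apart in NK cell and cytotoxic markers, whose summed level was 306 FPKM against 96.8 and 108 in the other Sham-6h rats. Replicate 3 of Sham-6h had the lowest neutrophil marker sum, 392 FPKM against 2722 and 5935. Heart muscle markers summed to 246 FPKM in replicate 2 of Sham-6h and to 260 and 327 FPKM in replicates 1 and 3 of DEX-6h, against 16.8 to 33.9 FPKM in the other 3 libraries. In whole lung, fewer cells of a type and less RNA per cell cannot be told apart. Surfactant protein C, the defining marker of type 2 cells, was at 19220 to 29930 FPKM in the 6 libraries.

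Known glucocorticoid target genes were among those that rose. Of 28 target genes tested, 12 were up-regulated, against 2.25% of all genes tested, and none was down-regulated, against 1.73%. Their median log2 fold change was 1.05, against -0.04 over all genes. The 12 were Fkbp5, Errfi1, Pdk4, Zfp36, Nfkbia, Ddit4, Lpin1, Per1, Glul, Mt2A and both genes listed as Mt1. Errfi1, which encodes a feedback inhibitor of the EGF receptor, was at 51.2, 51.2 and 34.9 FPKM in Sham-6h and at 207, 175 and 176 FPKM in DEX-6h. The groups did not overlap, and the log2 fold change was 2.07 ± 0.35 (SE, adjusted p = 0.00079). Fkbp5, a co-chaperone that dampens the receptor, rose by 2.01 (adjusted p = 0.0061), Zfp36, which destabilizes cytokine mRNAs, rose by 1.35 (adjusted p = 0.027), and Ddit4, an inhibitor of mTOR signalling, rose by 1.30 (adjusted p = 0.038). Fkbp5 was called in all 6 fits that left out 1 library, Zfp36 and Lpin1 (1.13) in 2 of them and Ddit4 in 1. Per1, a core clock gene, was at 17.0, 20.2 and 23.4 FPKM in Sham-6h and 36.6, 36.5 and 45.9 FPKM in DEX-6h. The log2 fold change of Per1, 1.01 ± 0.20, lies at the threshold, as does that of Glul (glutamine synthetase) at 1.00 ± 0.23, and neither was called without replicate 3 of DEX-6h or replicate 1 of Sham-6h. Among targets that did not pass, Dusp1 had a value of 1.05 (adjusted p = 0.079), Zbtb16 of 1.04 (adjusted p = 0.12) and Sgk1 of 0.30 (adjusted p = 0.38). The number of targets called was 4 without replicate 1 of Sham-6h, 6 without replicate 3 and 7 without replicate 1 of DEX-6h. It was 0 in SAP-6h vs Sham-6h, where 0.220% of all genes were called, and 1 in DEX-6h vs SAP-6h, where 0.515% were. The median of the targets was 0.49 in the former and 0.68 in the latter. In the same order, Per1 had values of 0.75 and 0.26, Mt2A of 2.37 and 0.90 and Fkbp5 of 0.73 and 1.28, none of which passed. Of 9 receptor and steroid enzyme genes, none passed both thresholds. The receptor gene Nr3c1 is listed as 2 genes. The more abundant one was at 15.9, 16.2 and 11.9 FPKM in Sham-6h and 8.69, 8.01 and 9.04 FPKM in DEX-6h, lower by less than 2-fold (log2 fold change -0.73, adjusted p = 0.00078), and the other had a value of -0.36 (adjusted p = 0.32).

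Metallothioneins, small proteins that bind zinc and copper, gave some of the largest and most abundant increases. Of 8 genes on the metallothionein and zinc list, 4 were up-regulated, against 2.25% of all genes tested. Mt2A and both Mt1 genes are counted among the glucocorticoid targets as well. The count of this list was 1 without replicate 1 of DEX-6h or of Sham-6h, and 2 without replicate 3 of Sham-6h. Mt2A was at 153, 352 and 51.2 FPKM in Sham-6h and at 2452, 1880 and 738 FPKM in DEX-6h, a log2 fold change of 3.27 ± 1.04 (adjusted p = 0.048). The ranges did not overlap, but the rats spread widely, and the call was kept only without replicate 2 of Sham-6h. The table holds 2 genes with the symbol Mt1. The one on chromosome 19 rose from 1.92, 4.15 and 1.74 FPKM to 31.3, 18.7 and 10.9 FPKM, a log2 fold change of 3.02 ± 0.69 that was called in each fit without 1 library. The one on chromosome 17 rose by 2.53 ± 0.63, and lost its call without replicate 1 of either group. By the methods of the study, reads that mapped to several places were discarded, and how far the 2 genes share sequence was not tested, so their levels are uncertain. The zinc importer Slc39a14 rose by 1.13 (adjusted p = 0.0087), and was not called without replicate 1 of DEX-6h, replicate 1 or replicate 3 of Sham-6h. Mt3 (0.01) and the zinc exporter Slc30a1 (-0.29) did not pass.

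RefSeq promoter windows (build GRCr8, 250 bases before to 50 after each start site) were searched for the letters of 2 kinds of response element. Metal response elements were searched as TGCGCNC and TGCACNC and glucocorticoid response elements as ACANNNTGT, the core, and as the whole palindromic element by its consensus, each on both strands. Of all 33469 windows, 14.1% held TGCGCNC, 12.2% held TGCACNC, 6.86% held the core and 0.0149% held the palindrome. TGCGCNC was in 23.7% of the windows of genes that rose and 21.4% of those that fell, TGCACNC in 17.7% and 20.9%, and the core in 5.0% and 3.18%. All 4 windows matched to the metallothionein list, those of Mt1, Mt2A, Mt3 and Slc30a1, held both metal element forms, and neither Mt3 nor Slc30a1 passed the test. Of 12 windows matched to the called glucocorticoid targets, 1 held the core, in Glul, and none held the palindrome. A match is a run of letters, not a measured binding site. The stretches upstream of Mt1 (chr19:10833015-10833160, minus strand, 6 matches), Mt2A (chr19:10838748-10838938, minus strand, 4 matches) and Glul (chr13:68519410-68519470, plus strand, 1 match) are shown because these genes rose and their windows hold the letters. Capitals mark the metal elements in the first pair and the core in the last.
Mt1: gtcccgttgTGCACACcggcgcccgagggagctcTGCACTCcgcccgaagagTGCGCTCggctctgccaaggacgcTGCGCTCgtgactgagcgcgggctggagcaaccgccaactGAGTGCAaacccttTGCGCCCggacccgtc
Mt2A: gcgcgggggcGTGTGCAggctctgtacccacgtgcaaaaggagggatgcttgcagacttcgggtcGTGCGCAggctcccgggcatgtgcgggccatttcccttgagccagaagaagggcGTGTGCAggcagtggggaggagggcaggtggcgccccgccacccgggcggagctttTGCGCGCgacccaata
Glul: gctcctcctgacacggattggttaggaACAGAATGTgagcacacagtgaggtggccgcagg

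Among genes with a symbol, at least 1 FPKM in a group and no overlap of the groups, Krt81 had the largest increase. Krt81, a hair keratin on chromosome 7, was at 0.18, 0.15 and 0.20 FPKM in Sham-6h and 3.51, 4.45 and 1.28 FPKM in DEX-6h (log2 fold change 4.19 ± 0.97, adjusted p = 0.0087). Ramp3, a partner of the calcitonin receptor-like receptor through which adrenomedullin acts, combined a large change with a high level. It was at 16.7, 21.5 and 13.03 FPKM in Sham-6h and at 241, 213 and 180 FPKM in DEX-6h, a 12.8-fold rise with a small error (log2 fold change 3.68 ± 0.42, adjusted p = 2.4e-05). Apold1, an early response gene of endothelium, rose from 2.66, 3.16 and 2.59 FPKM to 43.6, 25.9 and 25.9 FPKM (3.55 ± 0.54, adjusted p = 0.00033). Slc25a15, the mitochondrial ornithine carrier, rose from 10.7, 5.55 and 4.24 FPKM to 77.4, 52.6 and 46.0 FPKM (3.15 ± 0.40, adjusted p = 4.1e-05). These 4 genes were called in all fits without 1 library. Aspa, which cleaves N-acetylaspartate, rose by 3.08 ± 0.39, the secreted protein gene Cytl1 by 3.05 ± 0.60, the cytochrome P450 Cyp2c22 by 3.62 ± 0.71 and Ptprn, a protein of secretory granules, by 3.11 ± 0.66. The xenobiotic-metabolizing Cyp1a1 rose from 3.09, 4.11 and 7.28 FPKM to 25.9, 109 and 57.5 FPKM (3.78 ± 1.04, adjusted p = 0.024), and was not called without replicate 2 of DEX-6h or without replicate 1 or 2 of Sham-6h. Ccer2 (3.47), Clca1 (3.14) and Kb23 (3.05) completed the 15 largest increases with Aqp3, Mt2A and Mt1, and were called in 2, 3 and 4 of the 6 fits without 1 library. The change was 1.85 for Ccer2 without replicate 1 of DEX-6h and 1.78 for Clca1 without replicate 3 of DEX-6h. Clca1 was at 5.89, 7.58 and 4.38 FPKM in Con-6h, and in DEX-6h vs Con-6h it had a value of 0.79 and did not pass.

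**Figure D2:**
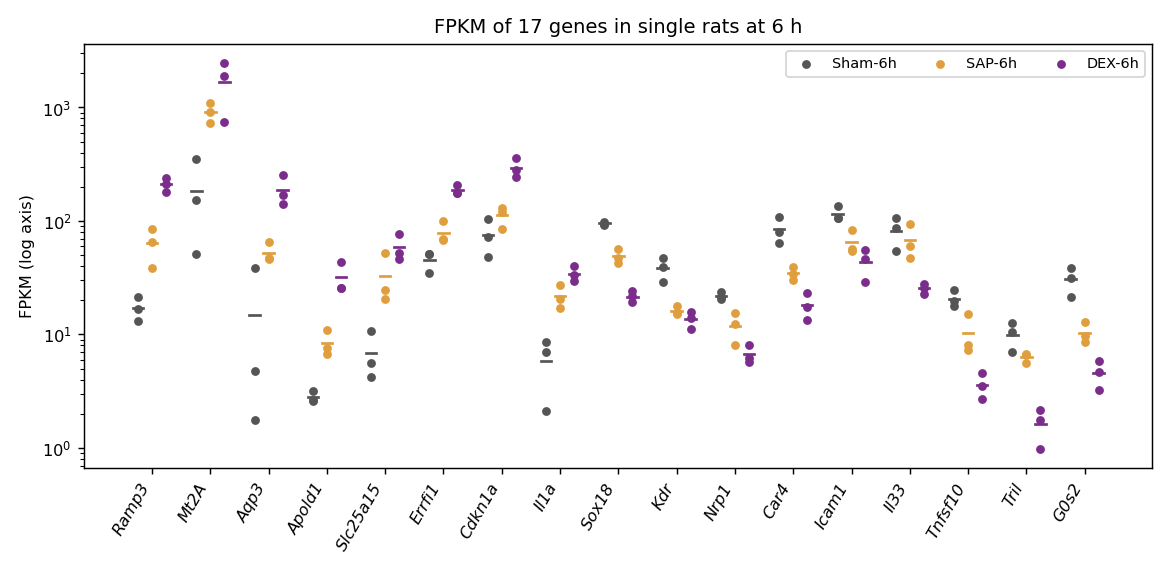
FPKM (log axis) of 17 genes in single rats of Sham-6h, SAP-6h and DEX-6h, with points for rats and bars for group means. In all 17 the 3 DEX-6h rats lie apart from the 3 Sham-6h rats, for example at 180 to 241 FPKM against 13.03 to 21.5 FPKM for Ramp3. The same held for 95.1% of DEGs and 26.75% of genes tested, and lack of overlap was part of the rule that named the largest genes.

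Genes of alveolar fluid transport rose in part. Of 13 genes on the list, 3 rose and 1 fell, and the median log2 fold change was 0.30. Atp1b1, the subunit that carries Na,K-ATPase to the membrane, rose by 1.15 ± 0.30 (adjusted p = 0.017), and was not called without replicate 3 of DEX-6h or without replicate 1 or 3 of Sham-6h. Aqp3, a channel for water and glycerol, was at 4.77, 1.78 and 38.4 FPKM in Sham-6h and 142, 169 and 252 FPKM in DEX-6h (3.66 ± 0.82, adjusted p = 0.0068). Without replicate 3 of Sham-6h, the highest of its group, the change was 5.88. Aqp5, the water channel of type 1 cells, fell from 123, 125 and 376 FPKM to 23.8, 82.1 and 67.0 FPKM, a change of -1.82 ± 0.50 (adjusted p = 0.023). It was not called without replicate 1 or 3 of DEX-6h or without replicate 3 of Sham-6h, the highest rat, where the change was -1.05. The sodium channel subunits Scnn1a (0.17), Scnn1b (-0.43) and Scnn1g (-0.78) did not pass.

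Of 12 type 2 cell genes 1 rose, fatty acid synthase (Fasn), from 37.4, 38.1 and 43.5 FPKM to 79.5, 67.2 and 105 FPKM (1.11 ± 0.26, adjusted p = 0.0094, not called without replicate 3 of DEX-6h). Surfactant protein genes Sftpc (0.06) and Sftpb (0.66, adjusted p = 0.078) did not pass. Of 9 type 1 cell genes 2 fell, Aqp5 and the kinase anchor Akap5 (-1.38, adjusted p = 0.027, called in 2 of 6 fits without 1 library). All 14 club and ciliated cell genes had a value above 0, with a median of 0.86 against 0.17 in DEX-6h vs Con-6h, and 1 rose, Ccdc39 of the ciliary axoneme (1.11, adjusted p = 0.033, called in 2 of 6 fits), while the most abundant, Scgb1a1, had a value of 0.42 (adjusted p = 0.28). Wnt7a, a secreted Wnt ligand, and the glucose transporter Slc5a1, neither of them on these lists, fell by 3.14 ± 0.61 and by 3.20 ± 0.52, and both calls held in all fits without 1 library. Wnt7a was at 3.71, 2.62 and 7.50 FPKM in Sham-6h and 0.14, 0.66 and 0.74 FPKM in DEX-6h, and Slc5a1 at 1.21, 1.77 and 1.88 FPKM and 0.07, 0.19 and 0.26 FPKM.

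Of 14 endothelial cell genes, 3 fell and none rose. The same number fell in each fit without 1 library, and 1 was called up without replicate 2 of DEX-6h and 1 when replicate 2 of Sham-6h was left out. In SAP-6h vs Sham-6h 2 members were called up and 1 down, and in DEX-6h vs Con-6h 1 up and 3 down. The 3 were Kdr, the main receptor for VEGF, its co-receptor Nrp1, and Car4, a carbonic anhydrase on the surface of lung capillaries. Kdr was at 47.6, 39.3 and 29.0 FPKM in Sham-6h and 14.1, 11.1 and 15.9 FPKM in DEX-6h (-1.46 ± 0.23, adjusted p = 0.00054). Nrp1 was at 23.7, 20.5 and 21.6 FPKM and 5.69, 6.26 and 8.02 FPKM (-1.68 ± 0.25, adjusted p = 0.00033). Car4 was at 109, 64.2 and 80.3 FPKM and 13.4, 23.3 and 17.3 FPKM (-2.18 ± 0.41, adjusted p = 0.0018). No range overlapped. The list did not fall as a whole: its median was 0.05, its summed level was 2421 to 2847 FPKM in Sham-6h and 2447 to 2699 FPKM in DEX-6h, and Tek (0.03), Tie1 (0.06) and Cdh5 (-0.31) did not pass. Nos3 (0.79), Esam (0.81) and Cldn5 (0.66) were higher and Eng (-0.82) lower, each at an adjusted p under 0.05 but by less than 2-fold.

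Other vascular genes were chosen after their values were seen. Sox18, an endothelial transcription factor, was at 94.9, 92.9 and 98.7 FPKM in Sham-6h and 19.1, 21.7 and 23.9 FPKM in DEX-6h (-2.11 ± 0.25, adjusted p = 2.5e-05). Pdgfb, a growth factor that recruits pericytes, fell by 1.81 ± 0.25, Smad9, a mediator of BMP signals, fell by 1.79 ± 0.29, and the BMP inhibitor Smad6 fell by 1.18 ± 0.27 (not called without replicate 1 of Sham-6h). Id3, a BMP target and one of the 5 most abundant genes that fell, was at 205, 199 and 265 FPKM in Sham-6h and 94.5, 105 and 96.3 FPKM in DEX-6h (-1.14 ± 0.20, not called without replicate 3 of Sham-6h). Apln, a ligand made by sprouting endothelium, rose from 22.7, 12.2 and 9.64 FPKM to 83.4, 113 and 53.7 FPKM (2.55 ± 0.45, adjusted p = 0.0013). Lyve1, a marker of lymphatic endothelium and some macrophages, rose from 94.7, 106 and 94.4 FPKM to 243, 400 and 391 FPKM (1.85 ± 0.37, adjusted p = 0.0033). On the list of endothelial activation and clotting genes, the adhesion molecule Icam1 fell by 1.36 ± 0.26 and urokinase (Plau) by 1.42 ± 0.35, while the urokinase receptor Plaur rose by 1.03 ± 0.24, of 13 tested. Icam1 was at 106, 105 and 135 FPKM in Sham-6h and 29.2, 46.7 and 55.5 FPKM in DEX-6h, and was called in all fits without 1 library. Plau was called in 4 of those 6 fits, with a change of -0.94 without replicate 3 of Sham-6h, and Plaur in 3.

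Tril, an accessory protein of Toll-like receptors, was at 10.4, 6.95 and 12.5 FPKM in Sham-6h and 0.98, 1.77 and 2.16 FPKM in DEX-6h (-2.58 ± 0.30, adjusted p = 2.5e-05). Tnfsf10, the death ligand TRAIL, was at 19.9, 24.5 and 17.7 FPKM and 3.54, 2.71 and 4.59 FPKM (-2.48 ± 0.31, adjusted p = 3.9e-05). The groups lay far apart for both. Il33, an alarmin stored in nuclei, fell from 86.1, 106 and 54.4 FPKM to 22.9, 27.9 and 25.5 FPKM (-1.64 ± 0.30, adjusted p = 0.0016). The opposite held for Il1a, another alarmin, which rose from 8.51, 6.95 and 2.10 FPKM to 39.9, 33.7 and 29.5 FPKM (2.61 ± 0.50, adjusted p = 0.0024), and for Csf2, the growth factor GM-CSF (1.47 ± 0.39, adjusted p = 0.019, called in 3 of 6 fits without 1 library). These were the 3 of 13 cytokine genes that passed, and Il1b (-1.43, adjusted p = 0.20) did not pass and Il6 was at 0 to 0.15 FPKM in the 6 libraries.

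Of 15 CC chemokines 1 fell, the monocyte attractant Ccl2, from 1.39, 2.36 and 1.54 FPKM to 0.19, 0.21 and 0.03 FPKM (-3.54 ± 1.12, adjusted p = 0.048). The groups did not overlap, but the levels were low and the call was lost in each of the 6 fits without 1 library, with changes of -3.88 to -3.05. None of 13 CXC chemokines passed, including Cxcl17 (-0.14) and Cxcl3 (-0.69), with a median of -0.56. Xcl1, a chemokine of NK and T cells that is on neither list, fell by 3.25 ± 0.86 (adjusted p = 0.019, called in 3 of 6 fits). It rested on 11, 1 and 1 reads in DEX-6h against 35, 57 and 19 in Sham-6h, and the change was -5.20 without replicate 1 of DEX-6h. Of 15 NF-kB genes, the inhibitor Nfkbia rose, from 228, 299 and 241 FPKM to 690, 596 and 576 FPKM (1.33 ± 0.35, adjusted p = 0.018, called in 3 of 6 fits), and Icam1 fell. None of 25 interferon response genes passed, with a median of -0.16. The rats differed widely within groups: Irf7 was at 12.1, 90.1 and 29.2 FPKM in Sham-6h and 140, 18.9 and 50.9 FPKM in DEX-6h. Of 16 immediate early and AP-1 genes, Maff (1.44), Fosl2 (1.05) and Jun (1.02) rose, and no call of these held without replicate 1 of DEX-6h, replicate 1 of Sham-6h or replicate 3 of Sham-6h.

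The leukocyte lists differed in sign. All 13 NK and cytotoxic cell genes tested had a value below 0, with a median of -1.32, and 1 passed, the transcription factor Tbx21 (-1.98 ± 0.58, adjusted p = 0.033). Perforin (Prf1) was at 21.0, 62.4 and 16.3 FPKM in Sham-6h and 10.7, 10.1 and 8.62 FPKM in DEX-6h, which did not overlap, but did not pass (-1.70, adjusted p = 0.084). Tbx21 was not called without replicate 2 of Sham-6h, in which these markers summed to 306 FPKM and without which the change was -1.20, nor without replicate 1 or 3 of DEX-6h. Granzyme A (Gzma), not on the list, fell by 3.01 ± 0.90 (adjusted p = 0.036), and was called only without replicate 3 of Sham-6h. Of 21 T cell genes 1 fell, Cd2 (-1.58, adjusted p = 0.038, called in 2 of 6 fits), with a median of -0.61. Of 17 monocyte and macrophage genes, Ccr2 (-2.13), Adgre1 (-2.10) and Cx3cr1 (-1.78) fell and the LPS co-receptor Cd14 rose (1.23), and each lost its call in at least 2 of the 6 fits without 1 library, with between 0 and 2 of the 3 that fell called in a fit. Of 16 class II and dendritic cell genes, Xcr1 (-2.50) and the class II regulator Ciita (-1.08) fell, called in 1 and in 2 of those 6 fits. None of 14 B and plasma cell genes passed, nor did any of 17 neutrophil genes, of which 2 were called up without replicate 2 of Sham-6h. The neutrophil genes had a median of 0.57 with 11 above 0, and the B and plasma cell genes a median of 0.03 with 8 above 0. S100a8 was at 1284, 2581 and 161 FPKM in Sham-6h and 1311, 1519 and 497 FPKM in DEX-6h.

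Of 9 platelet genes tested, 5 were up-regulated, against 2.25% of all genes tested, with a median log2 fold change of 2.02. Between 3 and 4 were called in each fit without 1 library. None of the 9 was called in DEX-6h vs Con-6h, where the median was 1.55, or in DEX-24h vs Sham-24h, where it was 0.38. Treml1, a receptor of platelet granules, was at 3.73, 3.36 and 0.57 FPKM in Sham-6h and 13.4, 18.1 and 11.1 FPKM in DEX-6h (2.52 ± 0.62, adjusted p = 0.012), and the von Willebrand receptor subunit Gp9 was at 2.05, 1.55 and 0.73 FPKM and 6.86, 8.15 and 4.61 FPKM (2.23 ± 0.53, adjusted p = 0.011). Itga2b, Gp1ba and Gp5 rose by 2.02, 2.31 and 2.06, of which Gp1ba lost its call in each of the 6 fits and Gp5 without replicate 1 of DEX-6h or replicate 1 or 3 of Sham-6h, while Pf4, the most abundant, had a value of 1.32 (adjusted p = 0.099). Summed over the list, the level was 45.5 to 119 FPKM in Sham-6h and 129 to 260 FPKM in DEX-6h. Haemoglobin and red cell genes summed to 972 to 4962 FPKM in Sham-6h and 978 to 8313 FPKM in DEX-6h and none of 8 passed. The methods of the study describe a rinse of the lung vessels with saline. The part of any blood that remained was not tested.

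Several genes of metabolism and growth control passed. Txnip, which binds thioredoxin and limits glucose uptake, had the lowest error of the 5 most abundant genes that rose, from 477, 629 and 441 FPKM to 1230, 957 and 1101 FPKM (1.14 ± 0.18, adjusted p = 0.00054). Pdk4, which turns cells from glucose to fat, rose by 1.69 ± 0.35 (adjusted p = 0.0040). Plin2, the coat of lipid droplets, was at 55.8, 66.9 and 64.3 FPKM in Sham-6h and 24.4, 24.3 and 25.5 FPKM in DEX-6h (-1.29 ± 0.20, adjusted p = 0.00043). G0s2, an inhibitor of lipolysis, fell from 31.6, 21.3 and 38.8 FPKM to 5.83, 3.24 and 4.69 FPKM (-2.70 ± 0.32, adjusted p = 2.6e-05). The retinoic acid enzymes Cyp26b1, which degrades it, and Aldh1a3, which makes it, fell by 2.72 ± 0.66 and by 2.18 ± 0.39, the first not called without replicate 3 of DEX-6h. Of 14 hypoxia and glycolysis genes Pfkfb3 (1.07) and Bnip3 (1.22) rose, a count that was 0 when replicate 3 of Sham-6h was left out and 4 when replicate 2 was. The cell cycle inhibitor Cdkn1a was at 72.2, 104 and 48.3 FPKM in Sham-6h and 362, 243 and 278 FPKM in DEX-6h (2.03 ± 0.47, adjusted p = 0.0087). Of 24 proliferation genes 1 fell, Tyms (-1.13, not called without replicate 1 of Sham-6h). Orm1, an acute phase protein that glucocorticoids induce in liver, rose from 1.85, 3.22 and 1.26 FPKM to 13.6, 14.1 and 11.6 FPKM (2.69 ± 0.66, adjusted p = 0.012), the single gene of 14 on its list to pass, and was not called without replicate 1 or 3 of Sham-6h. Lcn2 on the same list was at 176, 2.44 and 474 FPKM in Sham-6h and did not pass (1.61, adjusted p = 0.28). No member of the lists for heat shock (9 genes), unfolded protein stress (13), NRF2 (9), collagens (16) and prostaglandins (12) passed, and none of the 10 heart muscle, 6 skeletal muscle, 7 adipose and 5 pancreas genes did.

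**Figure D3:**
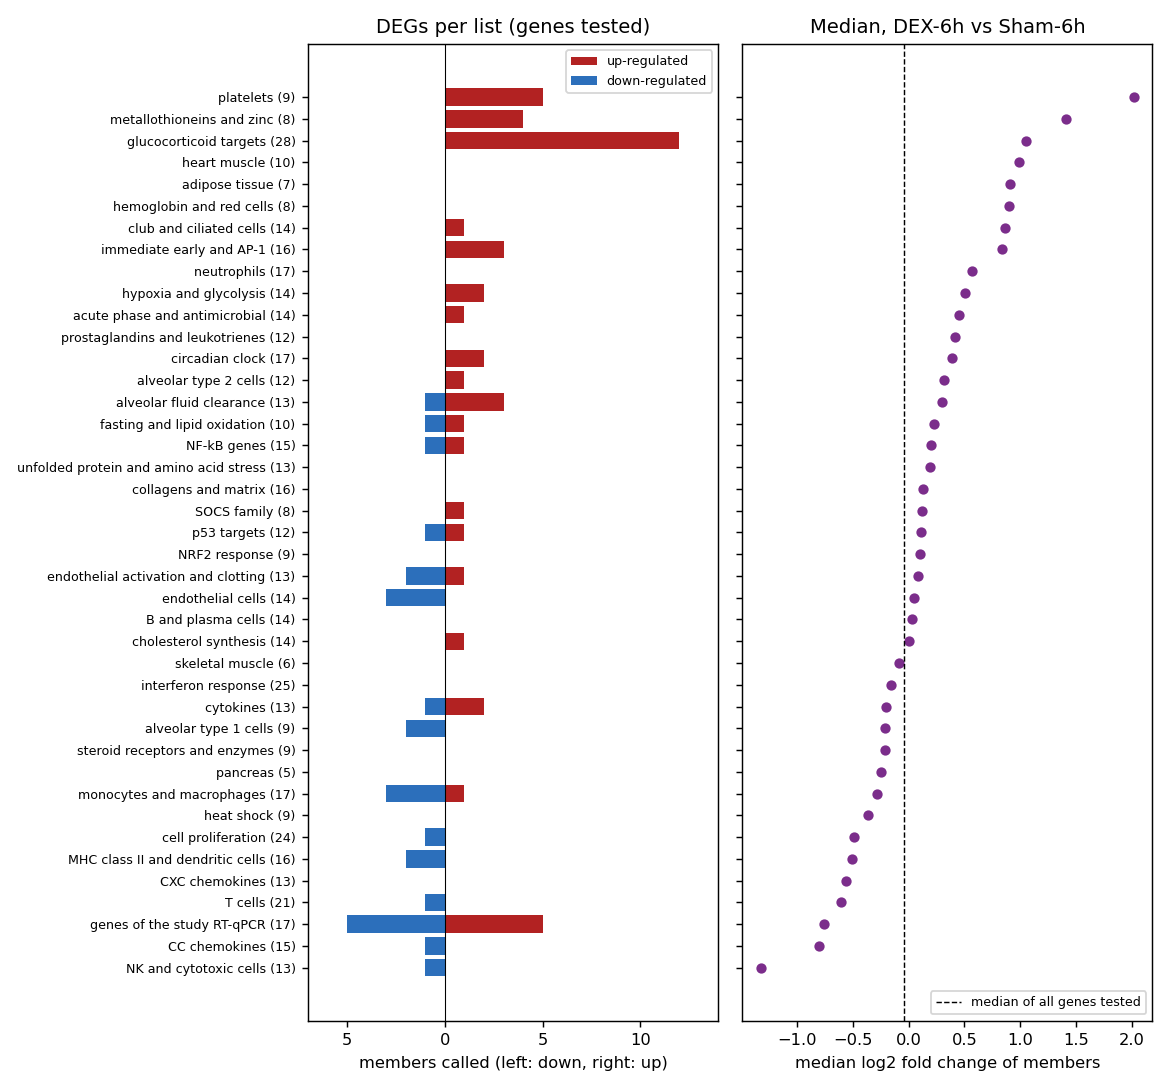
Left, number of members called down-regulated (blue, leftwards) and up-regulated (red, rightwards) in DEX-6h vs Sham-6h for each list, with the number of genes tested in brackets. Right, median log2 fold change of the members, with a dashed line at the median of all genes tested (-0.04). Glucocorticoid targets, the longest list, hold the most called members, 12 of 28. Platelet genes, with 5 of 9 called up, have the highest median, 2.02. Of all genes tested, 2.25% were up-regulated.

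Of 370 lincRNAs tested, 17 were DEGs, 4.59% against 3.97% of all genes. Of those with the lowest p, AABR07004868.2 on chromosome 1 rose from 1.42, 5.72 and 1.39 FPKM to 28.0, 13.1 and 15.4 FPKM (2.79 ± 0.59, adjusted p = 0.0048), AABR07044454.1 rose by 2.65 ± 0.56 and AABR07012065.1 by 1.31 ± 0.28. Rn60_7_1164.1 on chromosome 7 fell from 15.7, 8.92 and 30.8 FPKM to 3.50, 7.55 and 3.69 FPKM (-1.87 ± 0.38, adjusted p = 0.0040), AC111287.1 fell by 3.75 ± 0.77 from levels under 1 FPKM, and AABR07030086.2 fell by 2.08 ± 0.40. All 6 were called in each fit without 1 library. The RT-qPCR genes were picked by the study on these same samples, so their directions are not independent evidence. Of the RT-qPCR list of 17 genes, 5 rose and 5 fell. The semaphorin Sema7a rose from 29.0, 56.0 and 26.1 FPKM to 190, 162 and 163 FPKM (2.27 ± 0.43, adjusted p = 0.0020) and the granzyme inhibitor Serpinb9 fell from 36.3, 34.5 and 30.9 FPKM to 10.1, 12.2 and 10.1 FPKM (-1.61 ± 0.33, adjusted p = 0.0041). Cebpb (1.08), Maff (1.44), Socs2 (1.44) and Cdkn1a also rose, and Tbx2 (-1.08), Nrp1, Rn60_7_1164.1 and Rn60_20_0066.11 (-1.74) also fell. Without 1 library, Cebpb and Maff were called in 3 of 6 fits, Rn60_20_0066.11 in 2 and Tbx2 in 5.

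On the log2 scale, DEX-6h vs Sham-6h is the sum of SAP-6h vs Sham-6h, the pancreatitis step, and DEX-6h vs SAP-6h, the drug step. These comparisons share libraries, so their values are set side by side without a test between them. The pancreatitis step alone gave 35 DEGs (0.220% of genes tested) and the drug step alone gave 82 (0.515%), fewer than the 633 of the whole. At an unadjusted p under 0.05 and 2-fold, the steps gave 623 and 474 genes. Leaving out 1 library moved the count of the pancreatitis step to between 4 and 60 and that of the drug step to between 6 and 90. The 358 up-regulated genes had a median of 0.90 in the pancreatitis step and of 0.61 in the drug step, and the 275 down-regulated genes had medians of -0.62 and -0.82. The genes were chosen on the sum, so these medians describe its make-up and are not evidence for either step.

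Single genes divided differently between the steps. No gene was called in the pancreatitis step when its 6 libraries were fitted alone, so each call in that step given here rests on the spread of all 30 libraries. In Ramp3 both steps were of like size, 1.96 ± 0.39 and 1.73 ± 0.39, and each was called. The pancreatitis step held most of the change in Kdr (-1.21 of -1.46, called) and Slc25a15 (2.32 of 3.15, called). It held nearly all of the change in Treml1 (2.36 of 2.52) and Gp9 (2.19 of 2.23), which did not pass in that step. In Tbx2 (-1.13 of -1.08, called) and Ptprn (3.54 of 3.11, called) the pancreatitis step exceeded the whole. Their drug steps had the opposite sign, 0.05 and -0.43, and did not pass. The drug step held most of the change in Aspa (2.77 of 3.08), Cytl1 (2.58 of 3.05), Cyp2c22 (2.89 of 3.62), Plin2 (-1.22 of -1.29), Il33 (-1.40 of -1.64) and Tril (-1.96 of -2.58), each called in that step. In Tnfsf10 the steps lay closer, at -1.50 ± 0.30 in the drug step (called) and -0.98 ± 0.30 in the pancreatitis step (not called). In Cyp26b1 the drug step was -3.18 (called) and the pancreatitis step 0.47.

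**Figure D4:**
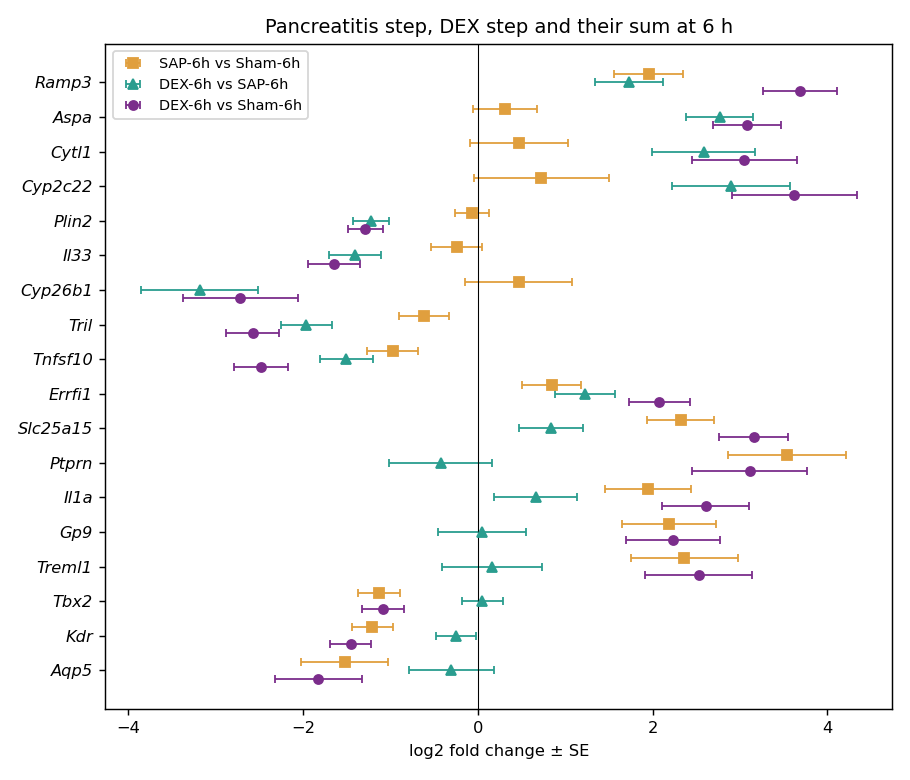
Log2 fold change ± SE of 18 genes in the pancreatitis step (SAP-6h vs Sham-6h, squares), the drug step (DEX-6h vs SAP-6h, triangles) and their sum (DEX-6h vs Sham-6h, circles). Both steps of Ramp3 lie near 2, that of Plin2 lies in the drug step (-1.22) and that of Kdr in the pancreatitis step (-1.21).

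Against the saline infusion in place of the sham operation, DEX-6h vs Con-6h gave 534 DEGs (3.35%), with the same DEX-6h libraries. The up-regulated genes of DEX-6h vs Sham-6h had a median of 1.21 there and the down-regulated ones of -1.34.

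SAP-6h vs Con-6h and DEX-24h vs Sham-24h use none of the 6 libraries. Like DEX-6h vs Sham-6h, both set taurocholate libraries against libraries without taurocholate. The share of unique tags in the study's read summary differed in the same direction in each, and what this adds to the values was not tested. SAP-6h vs Con-6h holds the SAP-6h rats of the pancreatitis step against other controls, with saline in the duct in place of the sham operation. It called 26 genes (0.163%), 18 up (0.113%) and 8 down (0.0502%). Of the 358 genes up-regulated in DEX-6h vs Sham-6h, 12 were called up in SAP-6h vs Con-6h, 3.35% against 0.113% of all genes, and 312 (87.2%) had a value above 0 there, against 48.2% of all genes. Of the 275 down-regulated genes, 6 were called down (2.18% against 0.0502%), and 44 (16.0%) had a value above 0. The number called in SAP-6h vs Con-6h itself was 0 without replicate 1 of SAP-6h or without replicate 3 of Con-6h.

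At 24 h, after the second dose, DEX-24h vs Sham-24h called 662 genes (4.15%), 158 up (0.992%) and 504 down (3.16%). Of the 358 genes up-regulated at 6 h, 54 (15.1%) were called up and 1 was called down at 24 h, and of the 275 down-regulated genes 82 (29.8%) were called down and 1 was called up. Above 0 at 24 h were 89.9% of the up-regulated and 10.5% of the down-regulated genes, against 48.4% of all genes. Orm1 (4.72), Cyp2c22 (3.93), Cytl1 (2.00) and Ramp3 (1.68) were called up at 24 h as well, and Cyp26b1 (-3.42), Il33 (-2.35), Tnfsf10 (-2.21) and Car4 (-1.91) were called down. T cell genes were called down in 19 of 21 at 24 h, against 1 of 21 at 6 h, and cholesterol synthesis genes were called up in 7 of 14, against 1 of 14. The difference between the times was tested gene by gene as 24 h minus 6 h, and 49 genes (0.308%) passed, 16 higher and 33 lower at 24 h. Of the T cell genes 1 of 21 passed it, lower at 24 h, and of the cholesterol synthesis genes 3 of 14, higher at 24 h.

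**Figure D5:**
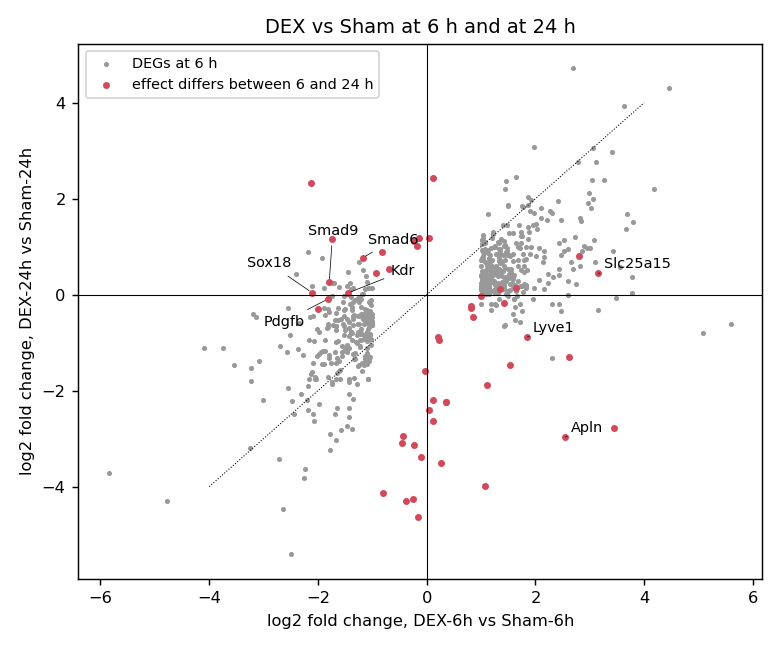
Log2 fold change of DEX-24h vs Sham-24h against that of DEX-6h vs Sham-6h for the 633 DEGs at 6 h (grey) and the 49 genes whose effect differed between the times (red), with a dotted line of equal change. Most grey points lie in the quadrants of like sign, while Apln and Lyve1 lie above 0 at 6 h and below 0 at 24 h.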

How the data were processed

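Lung RNA of each rat was sequenced by the authors from directional polyadenylated libraries. Per the labels and the methods of the study, reads were clipped and quality filtered, mapped with TopHat2 to the Ensembl rat genome release called rat_ensembl_v6, and kept only where they mapped to 1 place. The counting program is not given in the sources used here. The deposited values are raw read counts per gene and FPKM computed by the authors.

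Counts were analysed with edgeR 4.0.16 in R 4.3.3. Genes passed filterByExpr (minimum count 10, minimum total 15), libraries were scaled by TMM, and 1 quasi-likelihood model with 10 groups was fitted to all 30 libraries (20 residual degrees of freedom). A DEG had a Benjamini-Hochberg adjusted p under 0.05 and at least 2-fold change. SE is the log2 fold change divided by the root of F. FPKM served for levels and for the overlap of groups. Nothing says that rats were pooled, and each library is taken as 1 rat. Steps were tested on simulated data.

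Named genes were the 15 largest DEGs of each direction with a symbol, at least 1 FPKM in a group and no overlap, the 5 most abundant DEGs of each direction, up to 4 called members of each of 41 lists (the 2 most abundant members where fewer than 2 were called), the RT-qPCR genes and 3 lncRNAs of each direction. Some further list members and vascular genes were named after their values were seen. The comparison, the lists and this rule were chosen with earlier results of these data known. Of 576 list symbols, 19 were not matched. The read summary of the study gives a share of unique tags, without saying what it counts. It was lower in every taurocholate library than in any Sham or Con library, which cannot be told apart from the infusion. Alternatives were RLE scaling, other filters, DESeq2 1.42.0, the compared groups alone, other call rules, a replicate block, limma 3.58.1 on log2(FPKM + 1) and log2(FPKM + 0.1), and each library left out. Columns of per-sample values without a sample numbered 0. Figures were drawn with matplotlib. Some list members are counted but not reported here by name.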

Additional observations from a re-analysis of the deposited data

Results flagged for a closer look

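The test of the difference between the times, DEX vs Sham at 24 h minus 6 h, passed for 16 genes that were higher and 33 that were lower at 24 h. Among the vascular genes named here, Sox18 (2.15), Smad9 (2.05), Smad6 (1.94), Pdgfb (1.72), Eng (1.71) and Kdr (1.49) had a positive difference, from values below 0 at 6 h to values of -0.09 (Pdgfb) to 0.89 (Eng) at 24 h. The differences of Nrp1 (0.49) and Car4 (0.27) did not pass, and both genes were called down at 24 h as well (-1.19 and -1.91). Apln (-5.52) and Lyve1 (-2.74) had a negative difference with values of 2.55 and 1.85 at 6 h and of -2.97 and -0.88 at 24 h. Slc25a15 differed by -2.71, being 3.15 above Sham at 6 h and 0.44 at 24 h. Thbd, the clotting regulator thrombomodulin, also passed with a negative difference (-1.09, adjusted p = 0.018 in the edgeR test). Except for Kdr, Nrp1, Car4 and Slc25a15, these genes were chosen after their values were seen.
No sample was tested as an outlier within its group, since groups of 3 are too small for that test. The libraries said above to stand apart were described by their marker sums alone.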

How the results depend on the processing

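Replicates were taken as single rats, 3 a group. The p-values of the main fit rest on a spread estimated over all 30 libraries in 10 groups, not on the compared groups alone. For DEX-6h vs Sham-6h, fitting the compared groups alone gave 352 DEGs (216 up, 136 down), limma on log2(FPKM + 1) 271 (174 and 97), an unadjusted p 1083 (592 and 491) and adjusted p at any fold 1553 (822 and 731). Leaving out 1 library gave 372 to 679 (181 to 430 up, 133 to 265 down). RLE scaling, DESeq2, the other filters and limma on log2(FPKM + 0.1) stayed within 1.5 times. SAP-6h vs Sham-6h (35) gave 191 with DESeq2, 0 with the compared groups alone, 623 at an unadjusted p in the model of all libraries, 19 with limma on log2(FPKM + 1) and 4 to 60 without 1 library. DEX-6h vs SAP-6h (82) gave 149 with DESeq2, 474 unadjusted, 156 at any fold, 51 with limma and 6 to 90 without 1 library. DEX-6h vs Con-6h (534) gave 1019, 1134 and 289 with an unadjusted p, any fold and limma, and 290 to 521 without 1 library. SAP-6h vs Con-6h (26) gave 93 with DESeq2, 423 unadjusted and 0 to 32 without 1 library. DEX-24h vs Sham-24h (662) gave 1215 unadjusted, 1111 at any fold, 322 with limma and 304 to 673 without 1 library. The difference between the times (49) gave 181 with DESeq2, 768 unadjusted, 32 with limma and 14 to 64 without 1 library. The cause of these moves was not tested. Deviations from the group mean had correlations of -0.04, -0.35 and 0.16 between same-numbered rats of DEX-6h and Sham-6h. Between rats of other numbers they were -0.34 to 0.38. With 3 rats a group these values cannot exclude a pairing by replicate number. A replicate block gave 618 DEGs. No named gene that was called changed direction under any of these settings.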
